A study of Mus musculus with 20 samples.

Results

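The histone genes measured here are the 68 mouse genes whose symbol places them among the linker histones (H1f), the replication histones (H1f, H2ac, H2au, H2bc, H2bu, H3c and H4c) and the replacement variants of H2A and H3 (H2az and H3f). They were chosen by symbol alone from 53722 gene rows of the oocyte table and 55291 rows of the spermatogonia table, and all 68 occurred in both. By symbol they divide into 4 linker H1 variants, 2 H2A.Z genes, 4 H3 variant genes, and replication genes of which 6 encode H1, 15 H2A, 15 H2B, 12 H3 and 10 H4. On the genome build GRCm38, 47 of them lie on chromosome 13, 11 on chromosome 3, 4 on chromosome 11, 2 each on chromosomes 6 and 15, and 1 each on chromosomes 1 and 2.

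RNA-seq was made from mouse germ cells in which Chd4, the ATPase of the NuRD nucleosome remodelling and deacetylase complex, was conditionally deleted, on a mixed background of C57BL/6, 129S1/Sv and FVB/NJ. Non-growing oocytes (NGO) from ovaries at postnatal days 1 and 5 (P1, P5) and undifferentiated spermatogonia from testes at P3 were of genotype Chd4 f/-; Ddx4-Cre Tg/+ (DcKO) or Chd4 f/+; Ddx4-Cre Tg/+ (Dctrl), so these controls carry Cre and keep 1 wild-type Chd4 allele. Non-growing and growing oocytes (GO) at P10 were of genotype Chd4 f/f; Gdf9-iCre Tg/+ (GcKO) or Chd4 f/f without Cre (Gctrl). Ddx4-Cre acts in germ cells and Gdf9-iCre in oocytes, the second from a later stage. Each of the 10 groups has 2 libraries, 20 in all. Both Cre lines were used at different ages and with different kinds of control, so their effects cannot be told apart from age. No label says that the 2 libraries of a group came from separate animals, so the spread between them may be technical.

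The libraries held 15.48 to 30.31 M reads, recovered from the deposited TPM, a measure of transcript abundance scaled to gene length and library total. Chd4 itself averaged 3.11 ± 1.71 TPM in P1 DcKO oocytes and 27.9 ± 4.66 TPM in P1 Dctrl oocytes (SD, n = 2 each). That fall passed the test (adjusted p = 0.0136, limma). Chd4 was below both controls in every other knockout group too, without passing there. In spermatogonia it stood at 40.2 and 51.7 TPM in DcKO, against 249 and 286 TPM in Dctrl (adjusted p = 0.0671, limma). There the test missed even a large fall of the targeted gene. In P10 non-growing oocytes it stood at 1.34 and 0.247 TPM in GcKO, against 1.63 and 1.85 TPM in Gctrl. In growing ones it stood at 0.631 and 1.54 TPM, against 1.56 and 2.96 TPM. At these low levels its RNA shows little of the deletion. All 9 oocyte markers were above 0 in every oocyte group, led by Dppa3, and the spermatogonia expressed all 10 markers of undifferentiated spermatogonia. Summed TPM of 13 markers of gonadal supporting cells (granulosa and Sertoli cells) was 0.70 to 134.73 in oocyte libraries and 126.88 to 500.99 in spermatogonia libraries. Since these are bulk libraries, fewer cells of a type and less RNA per cell cannot be told apart.

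Nucleosomes wrap DNA around pairs of the core histones H2A, H2B, H3 and H4, and linker H1 binds where the DNA enters and leaves. Replication histone genes are clustered, lack introns for the most part, and are transcribed mainly in S phase into mRNAs that end in a conserved stem-loop instead of a poly(A) tail. Variant genes stand alone, are spliced in most cases, are polyadenylated, and serve cells that do not divide, as oocytes arrested in meiotic prophase do not. In mouse oocytes H1f8 (also called H1foo) encodes the oocyte-specific linker histone, H3f3a and H3f3b both encode H3.3, and H2ac1 and H2bc1 (also called Th2a and Th2b) encode H2A and H2B forms known from testis and oocytes. The library kit primes from poly(A), so the values reported for replication genes count the part of their RNA that this priming reached.

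The stem-loop that ends replication histone mRNAs is shown because an mRNA ending there lacks the poly(A) tail from which the kit primes. Whether members with a loop were captured less was not tested. The search covered whole annotated transcripts, so a member whose annotation stops short of its loop counts as having none. A run matching GGNNNTNNTNANNNCC whose outer 6 bases pair on both sides (G with T allowed) occurred on the transcript strand in 39 of the 58 replication members and in 0 of the 10 variant members, and in 1.007% of 58797 protein-coding transcripts of GENCODE M21. Capitals mark the paired stem and lower case the loop in the 4 forms carried by members described below.
Shared by 22 members, H2bu2, H2ac11, H2bc14 and H3c15 included: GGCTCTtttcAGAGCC
Shared by 6 members, H3c3 included: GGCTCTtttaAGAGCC
Shared by 4 members, H4c3, H4c4, H4c6 and H4c8: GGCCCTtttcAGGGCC
Shared by 2 members, H4c9 and H4c14: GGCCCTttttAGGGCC
Of the 39, 18 have annotated transcripts that end within 100 bases of the loop and 21 have transcripts running further. H2bu2 is one of the longer ones, with 169 bases past its loop and a poly(A) signal, which 10 replication and 7 variant members have.

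The promoter sequences of 4 members that passed tests below are shown next, as RefSeq gives them for GRCm38.p6, from 250 bases before to 50 after the gene's start. Capitals mark matches on either strand to CCAAT (the CCAAT box), to TATAAA (the TATA box) and to TAATTG (a homeodomain core), and 1 TAATTG in H2ac1 overlaps a CCAAT on the other strand.
H1f8, chr6:115944681-115944980, plus strand: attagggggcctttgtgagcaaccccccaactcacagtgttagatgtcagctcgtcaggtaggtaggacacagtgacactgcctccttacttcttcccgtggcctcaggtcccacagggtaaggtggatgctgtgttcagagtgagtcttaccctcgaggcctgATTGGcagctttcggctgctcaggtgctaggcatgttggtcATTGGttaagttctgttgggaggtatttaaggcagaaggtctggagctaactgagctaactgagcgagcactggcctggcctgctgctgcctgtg
H3f3b, chr11:116024455-116024754, minus strand: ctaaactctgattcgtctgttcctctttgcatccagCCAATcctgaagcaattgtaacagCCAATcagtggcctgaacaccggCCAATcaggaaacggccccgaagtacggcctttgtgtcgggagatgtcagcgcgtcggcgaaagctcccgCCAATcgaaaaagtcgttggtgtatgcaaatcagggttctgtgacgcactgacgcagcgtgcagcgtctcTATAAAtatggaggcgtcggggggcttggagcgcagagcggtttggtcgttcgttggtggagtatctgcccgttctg
H2bu2, chr11:58948661-58948960, plus strand: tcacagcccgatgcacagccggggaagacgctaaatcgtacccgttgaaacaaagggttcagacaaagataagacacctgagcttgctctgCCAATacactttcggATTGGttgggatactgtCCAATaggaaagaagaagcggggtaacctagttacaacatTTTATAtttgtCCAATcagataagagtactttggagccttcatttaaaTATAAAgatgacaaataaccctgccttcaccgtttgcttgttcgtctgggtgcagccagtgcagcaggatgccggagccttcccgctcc
H2ac1, chr13:23934187-23934486, plus strand: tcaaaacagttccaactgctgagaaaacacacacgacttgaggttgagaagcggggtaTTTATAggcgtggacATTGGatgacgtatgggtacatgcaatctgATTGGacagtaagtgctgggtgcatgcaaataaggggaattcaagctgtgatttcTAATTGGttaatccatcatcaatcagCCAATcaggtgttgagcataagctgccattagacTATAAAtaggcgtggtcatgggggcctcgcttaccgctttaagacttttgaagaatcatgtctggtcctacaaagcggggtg
CCAAT stood in 46 of 52 replication promoters in the table (88.5%), in 6 of 10 variant promoters, and in 41.1% of the promoters of 27025 genes. TATAAA stood in 31 of the 52 replication promoters (59.6%), in 2 of the 10 variant promoters (H3f3b and H3f4) and in 15.7% of all promoters. CACGTG was found in 0 of the 52 (8.1% of all promoters), TAATTG in 5 (9.2% of all) and TAATTA in 2 (6.1% of all). The H2ac1 stretch lies beside the divergent gene H2bc1, and 305 bases separate the annotated genes.

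Histone RNA in these libraries was mostly variant RNA. H3f3b alone made up 46.8 to 81.5% of the summed histone TPM of a library, and the 58 replication genes together 0.63 to 9.78%. Of the 68 members, 7 were listed at 0 in all 20 libraries (H1f7, H2ac10, H2ac18, H2ac19, H2bc18, H3c13 and H3c14), 14 stayed under 1 TPM throughout, 25 reached 10 TPM in some library, and 8 reached 100 TPM. Those 8 are the variants H1f0, H1f8, H2az1, H2az2, H3f3a and H3f3b and the replication genes H2bc4 and H2bu2. TPM is per length, but poly(A) priming may reach replication and variant RNA unequally. Besides, 20 of the 68 members have over 50% of their 100-base stretches in other genes too. Of the 7 at 0 throughout, all but H1f7 have exons that overlap an exon of another GENCODE M21 gene. So does every replication H2A gene. How reads in such overlaps were counted is not known, so a listed 0 need not mean absent RNA. These levels therefore compare only loosely between genes. The tables of oocytes and spermatogonia were also made separately.

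Linker histone composition differed between the 10 groups. H1f8 made up 88.4 to 89.6% of H1 TPM in P10 GcKO growing oocytes and 94.7 to 96.9% in Gctrl growing oocytes, but 0.0 to 0.9% in DcKO spermatogonia and 0.3 to 0.7% in Dctrl spermatogonia, where H1f0, the linker histone of non-dividing and differentiated cells, made up 97.9 to 99.2% and 95.8 to 97.9%. H1f10, another replacement linker histone, stayed between 0 and 6.09 TPM. H3f3a and H3f3b encode the same H3.3 protein, and H3f3b exceeded H3f3a in every library, by 8.08 to 184.87 times.

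**Figure D1:**
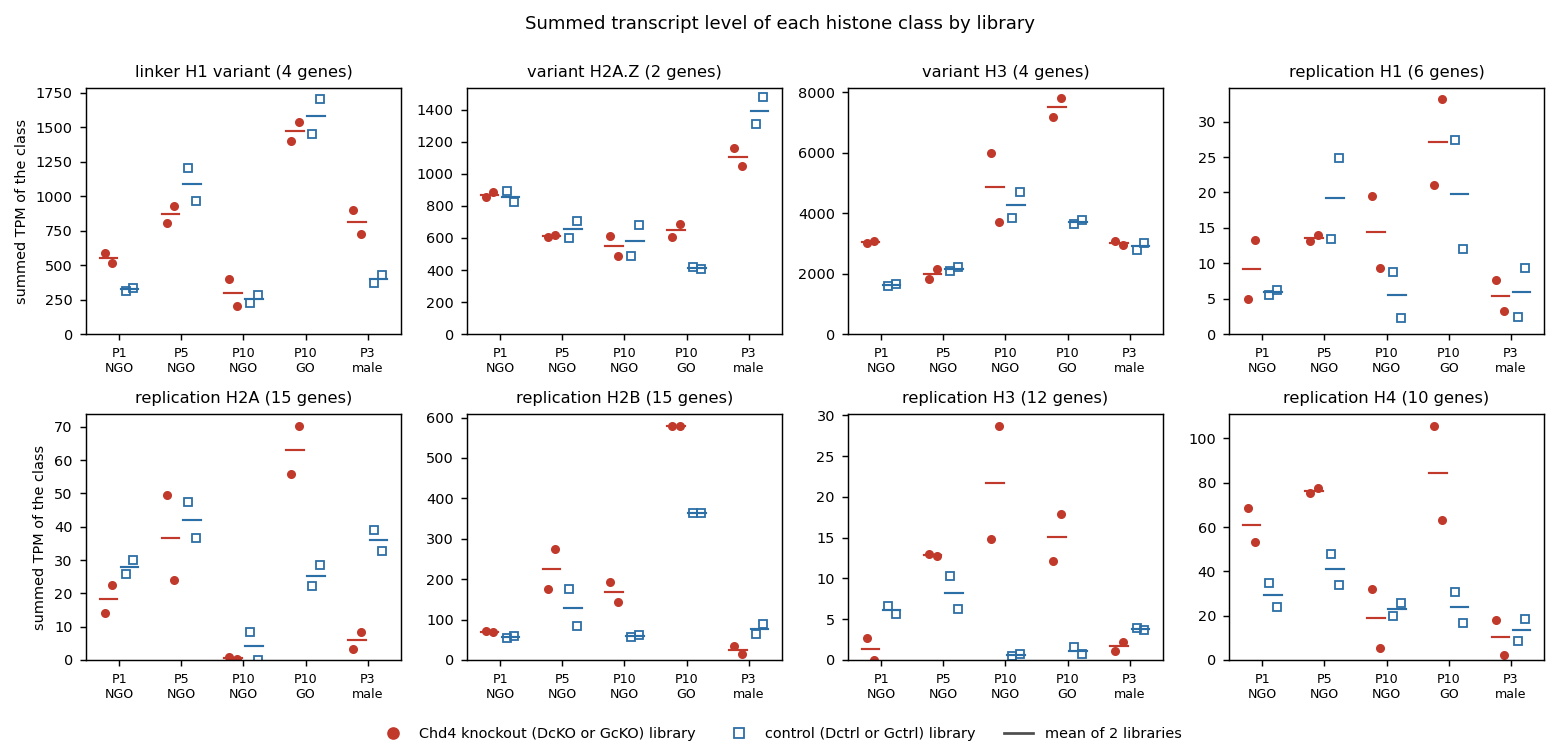
Summed TPM of each histone class in the 10 groups, 1 point for each library, knockout left of control. Variant H3 RNA is the most abundant class in every group, reaching 7180 to 7822 TPM in P10 GcKO growing oocytes against 3627 to 3774 TPM in Gctrl.

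**Figure D2:**
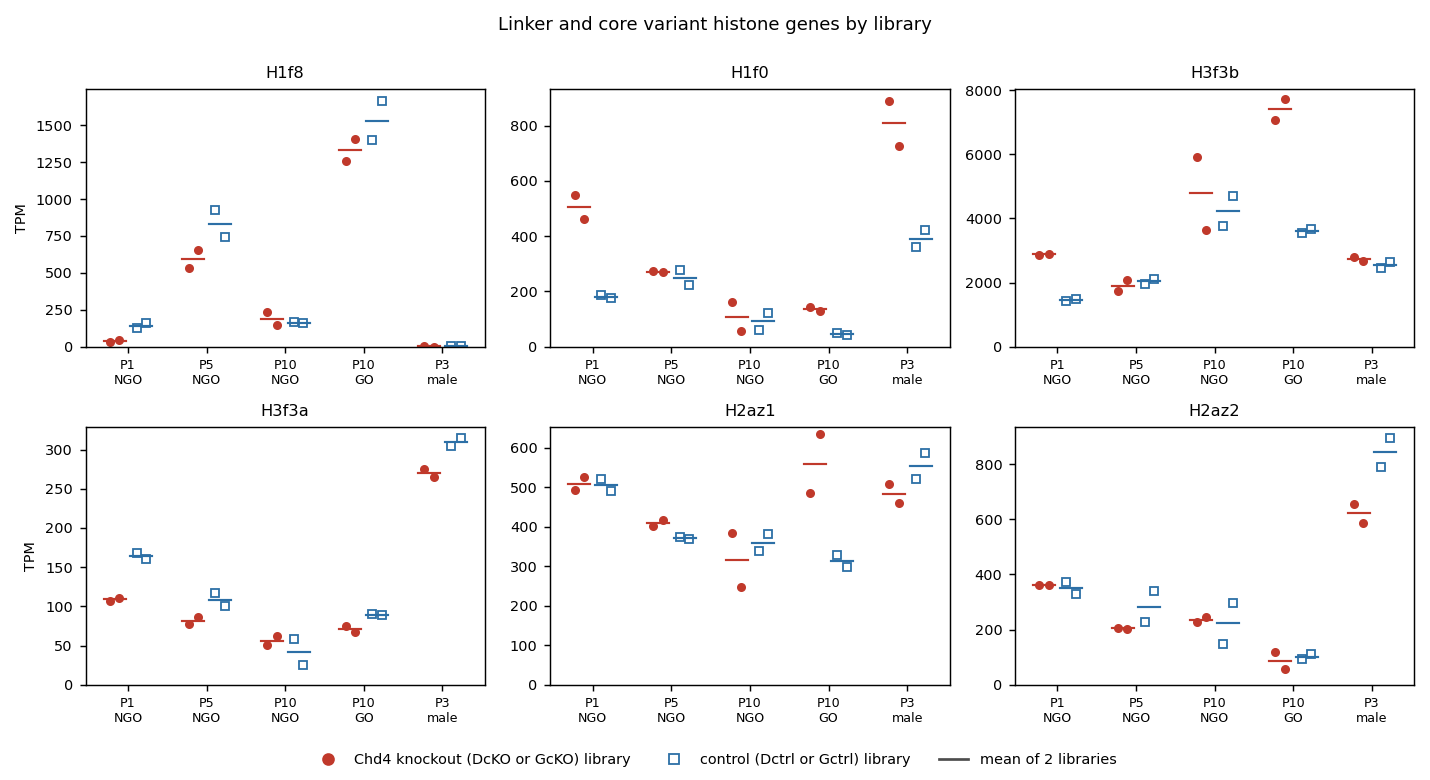
TPM of the variant genes H1f8, H1f0, H3f3b, H3f3a, H2az1 and H2az2 in every library, knockout left of control. H1f8 is lower in P1 DcKO oocytes (33.8 and 46.1 TPM) than in P1 Dctrl oocytes (127 and 158 TPM), and H3f3b is higher at P1 and in P10 growing oocytes.

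Between P1 and P5, control oocytes gained H1f8 and some replication histone RNA. H1f8 stood at 927 and 740.1 TPM in P5 Dctrl oocytes, against 127 and 158 TPM in P1 Dctrl oocytes, a log2 change of 2.54 (SE 0.237; adjusted p = 0.000131, limma). Neither P5 library came near the P1 range. In all, 5 of 42 members tested passed the test in this comparison (11.9%), beside 4.70% of all 20470 genes tested. The replication H2B gene H2bu2 rose to 55.1 and 24.4 TPM at P5, against 4.10 and 4.49 TPM at P1 (log2 change 2.83, adjusted p = 0.0136, limma). H2bc4, another H2B gene, rose to 98.3 and 41.5 TPM, against 18.4 and 23.1 TPM (1.59, adjusted p = 0.0270). H2ac15, an H2A gene, rose to 25.6 and 21.4 TPM, against 3.04 and 4.46 TPM (2.38, adjusted p = 0.0328). H2bc1, the testis-type H2B gene, fell to 0.288 and 0.289 TPM at P5, against 5.18 and 3.59 TPM at P1 (-2.05, adjusted p = 0.0174). P5 and P1 did not overlap for any of the 5. Only the H1f8 call of these 5 survived every omission of 1 library; without any single library of the 4, H2ac15 and H2bc1 no longer passed, and H2bu2 and H2bc4 did not pass in 3 of the 4 omissions. The 2 P5 libraries held 1 read of H2bc1 each. On recovered reads, limma-trend lost H2ac15, H2bc1 and H2bc4, and voom lost all but H1f8. A pseudocount of 0.1 also ended the calls of H2ac15 (adjusted p = 0.150) and H2bc1 (0.0983).

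Growing control oocytes at P10 carried far more H1f8 RNA than non-growing ones of the same age. H1f8 stood at 1399 and 1664 TPM in Gctrl growing oocytes, against 166 and 158 TPM in Gctrl non-growing oocytes (log2 change 3.23, SE 0.237; adjusted p = 2.93e-06, limma). The testis-type gene H2ac1 was at 21.6 and 26.1 TPM in growing oocytes and at 0 in both non-growing libraries, at least 22.81-fold higher when 3 reads in each library are taken as the floor. Its divergent neighbour H2bc1 stayed at or under 0.349 TPM in all 4 libraries. In all, 7 of 42 members tested passed (16.7%), all of them higher in growing oocytes, beside 24.3% of all genes, a share that is lower than the background.

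The other members that rose with growth were H2bu2, H2bc4, the replication linker gene H1f1, H3f3a and H3f3c. H2bu2 stood at 51.2 and 38.2 TPM in growing oocytes, against 1.27 and 0.466 TPM in non-growing ones (log2 change 4.63, adjusted p = 8.42e-05, limma). H2bc4 stood at 305 and 319 TPM, against 55.1 and 61.1 TPM (2.41, adjusted p = 0.000393). H1f1 stood at 10.5 and 9.40 TPM in growing oocytes and at 0 in both non-growing libraries, at least 18.06-fold higher by the floor of 3 reads (adjusted p = 0.00503). Each of these 3 genes was well separated between the groups. H3f3a rose to 90.0 and 88.5 TPM, against 58.8 and 25.3 TPM (1.19, adjusted p = 0.0153), and the pseudogene-like H3f3c to 2.24 and 2.28 TPM, against 0.315 and 0 TPM (1.51, adjusted p = 0.0345). Without Gctrl non-growing library 2 the adjusted p was 0.111 for H3f3a and 0.146 for H3f3c. H3f3a also missed the threshold in a fit of the 4 libraries alone (0.106) and without either growing library and H3f3c without any of the 4 libraries. Of the H3f3c 100-base stretches, 56.7% recur in other genes, H3f3a among them, so reads of these genes may be split.

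In P1 oocytes, loss of Chd4 went with lower H1f8 and higher H3f3b. H1f8 was at 33.8 and 46.1 TPM in DcKO oocytes, against 127 and 158 TPM in Dctrl oocytes. H3f3b was at 2854 and 2901 TPM in DcKO oocytes, against 1422 and 1477 TPM in Dctrl oocytes. The groups did not overlap for either gene. H1f8 fell (log2 change -1.82, SE 0.237; adjusted p = 0.00284, limma) and H3f3b rose (0.99, SE 0.177; adjusted p = 0.0161). These were the only 2 of 42 members tested that passed (4.76%), beside 1.70% of all 20470 genes. Of the 9 oocyte markers, Gdf9 and Zp3 passed by limma as lower in P1 DcKO and 0 as higher. Of the same 9, 3 had a log2 change above 0. Any link of these marker changes to the H1f8 fall was not tested. H3f3b did not pass without any 1 of the 4 libraries (adjusted p 0.0784 to 0.149), and under voom on recovered reads neither H1f8 (0.215) nor H3f3b (0.977) passed.

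H1f0 was at 549 and 464 TPM in P1 DcKO oocytes, against 185 and 176 TPM in P1 Dctrl oocytes, above both controls, but it did not pass the test (log2 change 1.48, adjusted p = 0.129, limma). H1f8 accordingly made up 5.7 to 8.8% of H1 TPM in DcKO and 39.6 to 46.1% in Dctrl oocytes. Of the 42 members tested, 11 (26.2%) were above and 11 (26.2%) below both controls in P1 DcKO, beside 18.4% and 22.5% of all genes tested. The shared-promoter pair H2ac1 and H2bc1 stayed at or under 7.27 TPM in all 4 libraries. H2az1 was at 493 and 526 TPM in DcKO, against 521 and 492 TPM in Dctrl oocytes, with overlapping groups. Summed supporting cell markers were 16.39 to 81.30 TPM in DcKO and 76.08 to 134.73 TPM in Dctrl oocytes, with Amh at 0 in all 4 libraries. Their part in these results was not tested.

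In P5 oocytes none of the 42 members tested passed by limma, beside 1.36% of all genes, while 11 had an unadjusted p under 0.05, 8 higher and 3 lower in DcKO, beside 11.8% of all genes. The limma fits on recovered reads, voom included, called 0 as well, but H3c2, H3c3 and H3c4 passed in a fit without a filter. The share of all genes passing in that fit is not given here. The result also depended on Dctrl library 1. Of the 42 tested, 12 (28.6%) were above and 10 (23.8%) below both controls in P5 DcKO, beside 23.9% and 23.4% of all genes tested. H1f8 was at 530.0 and 657 TPM in DcKO oocytes, against 927 and 740.1 TPM in Dctrl oocytes, below both controls but with adjusted p = 0.466. H2bc4 was at 123 and 220.3 TPM, against 98.3 and 41.5 TPM (adjusted p = 0.106). H3f3b, at 1729 and 2066 TPM against 1962 and 2119 TPM, overlapped. Summed supporting cell markers were 40.60 to 64.87 TPM in DcKO and 8.64 to 13.22 TPM in Dctrl oocytes. Of 7 such markers tested, 6 had a log2 change above 0 and 1 (Inha) passed by limma, higher in DcKO. Inhbb was at 0 in all 4 libraries. The part of these markers in the histone values was not tested.

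In P10 non-growing oocytes 2 replication genes changed in opposite directions. H2bu2 was at 96.9 and 24.4 TPM in GcKO oocytes, against 1.27 and 0.466 TPM in Gctrl oocytes. H4c8, an H4 gene of the chromosome 13 cluster, was at 0 in both GcKO libraries, against 18.7 and 19.2 TPM in Gctrl libraries that rest on 68 and 63 reads. Neither gene overlapped between the groups. H2bu2 rose (log2 change 4.77, SE 0.559; adjusted p = 0.00254, limma) and H4c8 fell (adjusted p = 0.00772), at least 25.79-fold by the floor of 3 reads. Those were 2 of 42 members tested (4.76%), beside 1.92% of all genes. Of the 42, 13 (31.0%) were above both controls in GcKO non-growing oocytes and 1 (2.38%) below, beside 17.4% and 17.0% of all genes tested. A fit restricted to these 4 libraries called 0 genes of any kind (adjusted p = 0.302 for both). Of the H4c8 100-base stretches, 38.5% occur in other genes, mostly other H4 genes, so its reads may be split among them.

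None of the variants in P10 non-growing oocytes passed the test. H3f4 and H3f3c, both low in the controls, were above both control libraries. H3f3c was at 2.58 and 1.81 TPM in GcKO, against 0.315 and 0 TPM in Gctrl oocytes (adjusted p = 0.147, limma). H3f4 was at 20.9 and 1.81 TPM, against 0.315 and 1.04 TPM (0.180). H3f3b was at 5913 and 3649 TPM in GcKO, against 3766 and 4684 TPM in Gctrl oocytes. H1f8 was at 233 and 147 TPM, against 166 and 158 TPM. H2az1 was at 385 and 247 TPM, against 339 and 381 TPM. The groups overlapped for H3f3b, H1f8 and H2az1. Summed supporting cell markers were 4.06 to 24.08 TPM in GcKO and 4.54 to 6.46 TPM in Gctrl oocytes, with Amh, Amhr2 and Nr5a1 at 0 in all 4 libraries.

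In P10 growing oocytes 7 members rose in GcKO and 0 fell, 7 of 42 tested (16.7%), beside 13.8% of all genes, so the share was close to the background. They were 4 variants (H3f3b, H3f4, H2az1 and H1f0) and 3 replication genes (H2bc14, H2ac11 and H3c15). The median log2 change over the 42 members was 0.53, against 0.06 over all genes. Summed histone TPM was 9957 to 10813 in GcKO and 5943 to 6310 in Gctrl growing oocytes.

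H3f3b was at 7078 and 7722 TPM in GcKO growing oocytes, against 3535 and 3683 TPM in Gctrl growing oocytes. By TPM it ranked number 8 among all genes in both GcKO libraries and number 32 and 28 in the Gctrl libraries. The change was 1.03 on the log2 scale (SE 0.177; adjusted p = 0.00207, limma), and it passed under every alternative except voom on recovered reads (0.203). H2az1, which encodes the H2A.Z found at promoters, was at 485 and 634 TPM, against 329 and 298 TPM (0.82, SE 0.194; adjusted p = 0.0140). H1f0 was at 143 and 129.7 TPM, against 50.9 and 41.6 TPM (1.54, SE 0.418; adjusted p = 0.0281). All 3 genes were higher in both GcKO libraries than in either control. H1f0 did not pass without any 1 of the 4 libraries (0.0781 to 0.149), without a filter (0.0638) or under voom (0.0762). H2az1 did not pass without GcKO library 2 (0.102), without Gctrl library 2 (0.0906) or in a fit of the 4 libraries alone (0.0562).

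H3f4, annotated as a pseudogene in GENCODE M21 and as protein coding in RefSeq, was at 19.8 and 28.9 TPM in GcKO growing oocytes, against 0.320 and 0 TPM in Gctrl growing oocytes (log2 change 4.44, SE 0.785; adjusted p = 0.00255, limma). The H2B gene H2bc14 was at 8.39 and 16.5 TPM in GcKO and at 0 in both Gctrl libraries, at least 16.36-fold higher by the floor of 3 reads (adjusted p = 0.00135). The H2A gene H2ac11 was at 17.3 and 3.50 TPM in GcKO and at 0 in both Gctrl libraries, at least 12.67-fold higher (adjusted p = 0.00944). That bound was 4.26-fold without GcKO library 1 and 21.07-fold without GcKO library 2, libraries that held 63 and 11 of its reads. The H3 gene H3c15 was at 6.53 and 9.52 TPM in GcKO and at 0 in both Gctrl libraries, at least 20.56-fold higher (adjusted p = 0.0263). None of the 4 overlapped between groups. H2bc14 and H3f4 passed under every alternative. H3c15 did not pass without any 1 of the 4 libraries (0.0653 to 0.111) or without a filter (0.0643). H2ac11 did not pass without GcKO library 1 (0.0723), without either Gctrl library (0.0540 and 0.0542) or in a fit of the 4 libraries alone (0.0664). Of the 100-base stretches of H2ac11 and H3c15, 76.2% and 61.6% recur in other genes, so how their reads were assigned is uncertain.

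H1f8 in growing oocytes was at 1257 and 1407 TPM in GcKO, against 1399 and 1664 TPM in Gctrl, with overlapping ranges and no call (log2 change -0.20, adjusted p = 0.725, limma). H2bc4 was at 424 and 437 TPM, against 305 and 319 TPM, above both controls and not called (adjusted p = 0.491). H2bu2 was at 128 and 118 TPM, against 51.2 and 38.2 TPM (adjusted p = 0.119), and H4c9, an H4 gene, at 49.7 and 31.2 TPM, against 15.8 and 0.737 TPM (adjusted p = 0.0587). Over all 68 members, GcKO was above both controls for 18 and below both for 5. Among the 42 tested these were 17 (40.5%) and 3 (7.14%), beside 30.3% and 18.0% of all genes tested. Of the 9 oocyte markers, 4 rose (Dppa3, Sohlh1, Figla and Nobox), 0 fell and 6 had a log2 change above 0. Their summed TPM, most of it Dppa3, was 98823 to 109779 in GcKO and 48393 to 50019 in Gctrl. Supporting cell markers summed to 11.04 to 26.16 TPM in GcKO and 0.70 to 3.02 TPM in Gctrl, with Inhbb and Nr5a1 at 0 in all 4 libraries. Their part in the histone results was not tested.

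**Figure D3:**
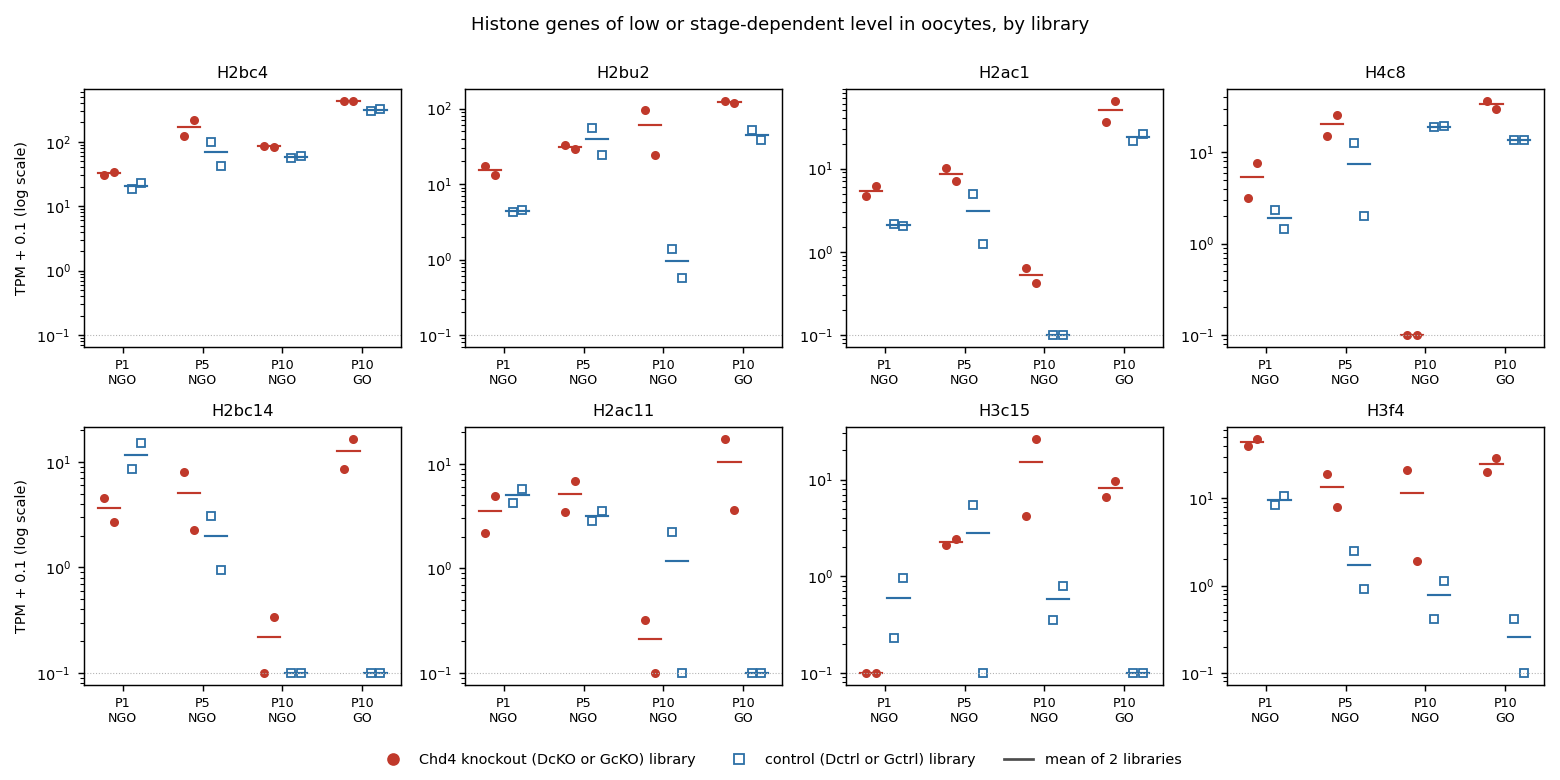
TPM + 0.1 (log axis) of some members called in oocyte comparisons, 1 point for each library, knockout left of control within each stage. The genes are H2bc4, H2bu2, H2ac1, H4c8, H2bc14, H2ac11, H3c15 and H3f4. H2bc14 is at 8.39 and 16.5 TPM in P10 GcKO growing oocytes and at 0 in both Gctrl growing libraries.

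In P3 spermatogonia replication RNA summed to 30.2 to 64.7 TPM in DcKO and 118.9 to 153.7 TPM in Dctrl cells, but no member passed the test (0 of 22 tested by limma, and 0.0% of all 18671 genes). Unadjusted p was under 0.05 for 7 members, 1 higher and 6 lower in DcKO, and for 16.1% of all genes. Voom and limma-trend on recovered reads called 0 members too. The following were chosen after their values were seen. H2bc11 was at 7.96 and 1.83 TPM in DcKO, against 31.8 and 41.0 TPM in Dctrl cells (adjusted p = 0.154, limma). H2ac13 was at 1.41 and 0.430 TPM, against 10.2 and 11.5 TPM (0.154). H2ac8 was at 0.785 and 0 TPM, against 6.17 and 5.92 TPM (0.178). For these genes the groups did not overlap. Of their 100-base stretches, 40.1% for H2bc11, 88.4% for H2ac13 and 30.7% for H2ac8 recur in other genes, so their reads may be split among them.

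Among the variants in spermatogonia, H1f0 was at 891 and 725 TPM in DcKO, against 362 and 421 TPM in Dctrl cells (log2 change 1.04, adjusted p = 0.114, limma). H2az2 was at 657 and 588 TPM, against 791 and 893 TPM (adjusted p = 0.220). H3f3b was at 2791 and 2664 TPM, against 2463 and 2643 TPM (0.767). All 3 sets of libraries were fully separated by genotype. Over all 68 members, DcKO was above both controls for 2 and below both for 14. Among the 22 tested these were 2 (9.09%) and 13 (59.1%), beside 27.9% and 18.0% of all genes tested. Summed supporting cell markers were 366.87 to 500.99 TPM in DcKO and 126.88 to 172.17 TPM in Dctrl cells. Foxl2 was at 0 in all 4 libraries, and Krt18, Inha and Fst were the highest in both groups. Of 9 tested, 8 had a log2 change above 0 and 0 passed by limma. Stroma markers summed to 38.49 to 41.06 TPM in DcKO and 11.52 to 11.74 TPM in Dctrl cells. Endothelium markers summed to 43.61 to 45.64 TPM, against 22.29 to 22.66 TPM. Blood markers summed to 69.64 to 98.83 TPM, against 28.13 to 37.87 TPM. S-phase and mitosis genes summed to 4686 to 4922 TPM in DcKO and 5480 to 5964 TPM in Dctrl cells. The part of these markers and cell cycle genes in the histone differences was not tested.

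**Figure D4:**
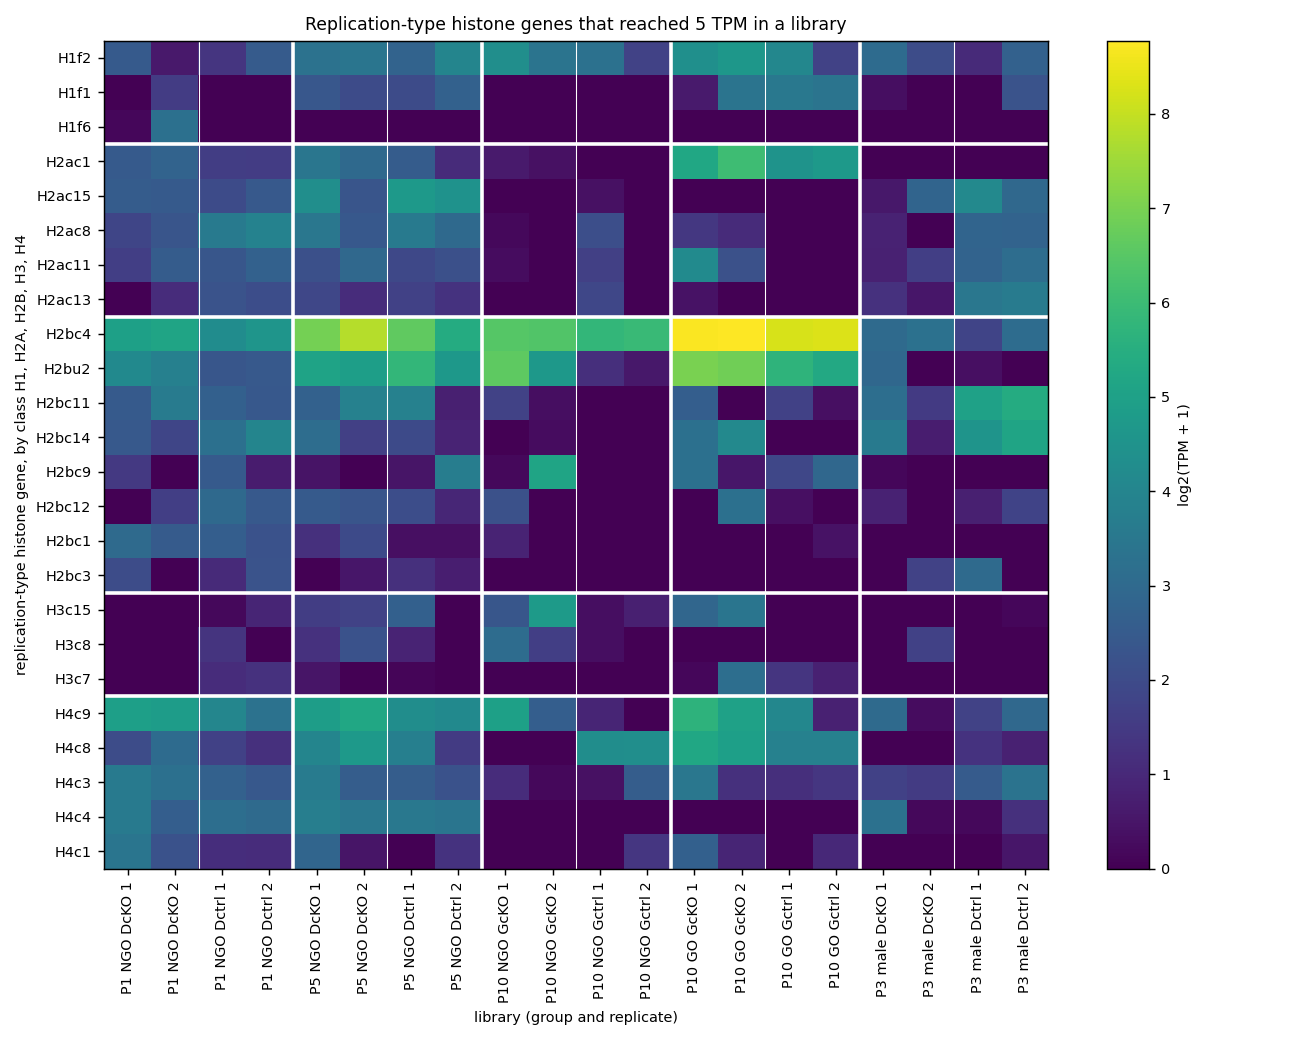
TPM of the 24 replication genes that reached 5 TPM in some library, by library, with knockout libraries left of their controls. H2bc4 and H2bu2 are the brightest rows, in P10 growing oocytes of both genotypes.

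**Figure D5:**
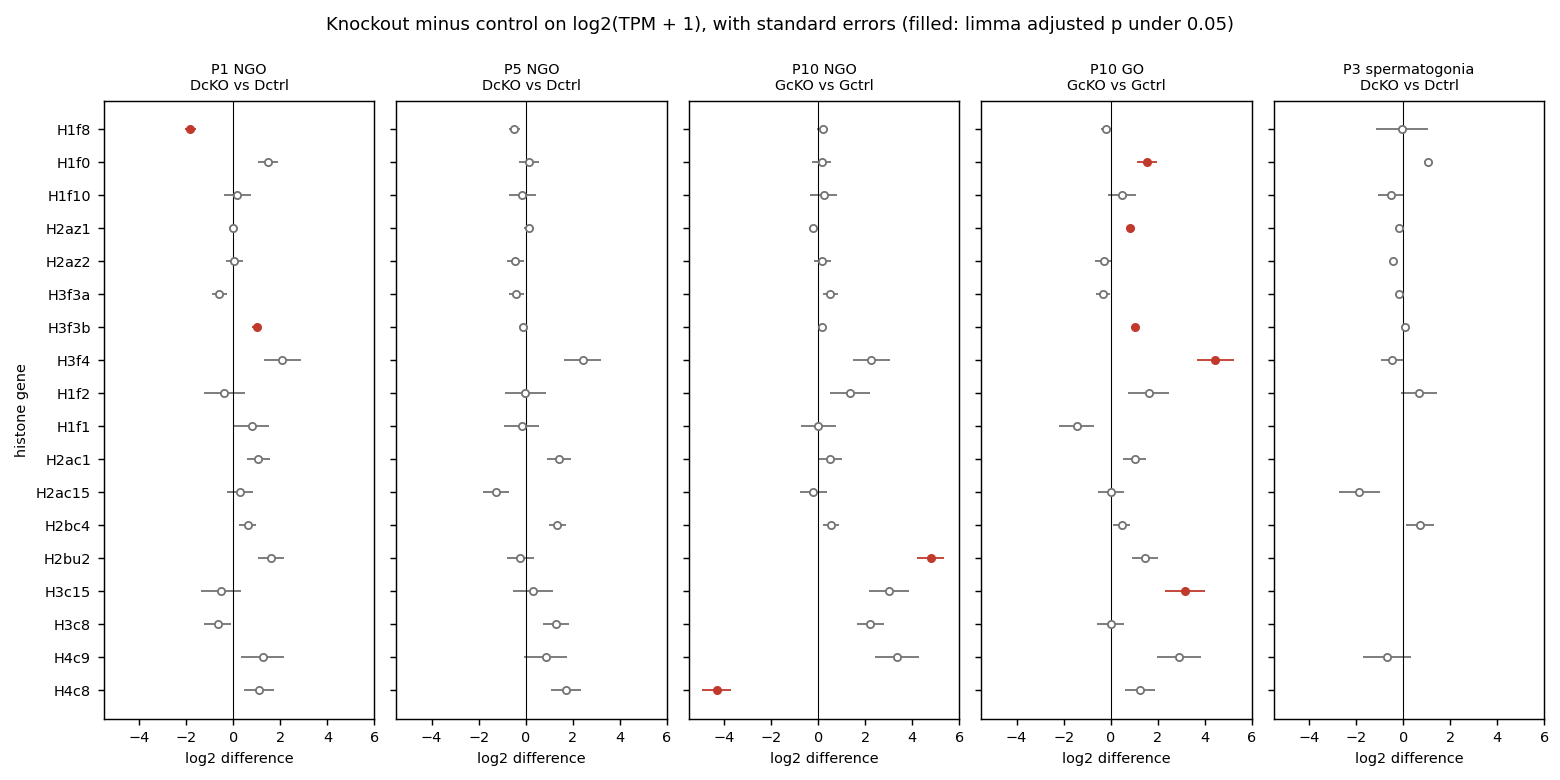
Log2 difference, knockout minus control, of selected members with its standard error in the 5 knockout comparisons. A filled point passed the test (adjusted p under 0.05, limma), and a listed member with no point in a panel was not tested there. The filled points of P10 growing oocytes, H3f3b, H3f4, H2az1, H1f0 and H3c15 among them, all lie to the right of 0.

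The effect of Chd4 loss itself was compared between stages. It differed between P5 and P1 for 1 of 42 members (2.38%), beside 0.313% of all genes. That member, the H3 gene H3c3, was at 2.61 and 3.04 TPM in P5 DcKO, against 0.175 and 1.06 TPM in P5 Dctrl oocytes, and at 0 in both P1 DcKO libraries, against 1.47 and 1.59 TPM in P1 Dctrl oocytes. Those values rest on few reads, 1 and 6 in P5 Dctrl and 7 and 8 in P1 Dctrl oocytes, and 28.4% of H3c3 100-base stretches recur in other genes, H3c2 among them. The effect differed between growing and non-growing P10 oocytes for 5 members (11.9%), beside 7.46% of all genes. H4c8 was higher in GcKO growing oocytes at 36.8 and 29.9 TPM, against 13.4 and 13.4 TPM in Gctrl growing oocytes, and at 0 in GcKO non-growing oocytes, against 18.7 and 19.2 TPM in Gctrl. H2bc14, H2ac11 and H2az1 showed a larger effect in growing oocytes, and H2bu2 a smaller one. The comparison of growing with non-growing control oocytes and these knockout comparisons share control libraries, so their values are not independent.

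H3f4 was above both controls in all 4 oocyte knockouts, although it passed the test in growing oocytes only. It was at 39.4 and 48.2 TPM in P1 DcKO, against 8.39 and 10.7 TPM in P1 Dctrl oocytes (adjusted p = 0.322, limma). It was at 19.0 and 7.94 TPM in P5 DcKO, against 2.42 and 0.810 TPM in P5 Dctrl oocytes (0.196). Its values in P10 non-growing and growing oocytes are those given above. In spermatogonia it was at 15.2 and 26.3 TPM in DcKO, against 18.3 and 43.4 TPM in Dctrl cells, with overlapping groups. The difference between these effects was tested only between P5 and P1 (adjusted p = 1.0) and between growing and non-growing oocytes (0.295), and passed in neither.

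H2bu2 and H4c9 were above both controls at P1 without passing the test. H2bu2 was at 17.1 and 13.2 TPM in P1 DcKO, against 4.10 and 4.49 TPM in P1 Dctrl oocytes (adjusted p = 0.266, limma), and H4c9 at 30.1 and 28.0 TPM, against 15.1 and 8.96 TPM (0.812). At P5 H2bu2 overlapped, at 33.3 and 29.3 TPM in DcKO against 55.1 and 24.4 TPM in Dctrl oocytes. H4c9 was at 28.8 and 36.7 TPM in P5 DcKO, against 18.6 and 16.9 TPM in P5 Dctrl oocytes (0.835), and at 31.1 and 5.11 TPM in P10 GcKO, against 0.891 and 0 TPM in Gctrl non-growing oocytes (0.0986). Of the remaining abundant members of each class, H1f2, a replication linker gene, stayed between 0.520 and 23.7 TPM in all 20 libraries and H3c8, an H3 gene, between 0 and 7.60 TPM.

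Replication genes were also unevenly measured within groups. In 59 pairs of replication member and group with a library at 10 TPM or more, the other library of the group was under 1 TPM in 5, among them H2bc9 in P10 GcKO non-growing oocytes, at 0.126 and 33.6 TPM. In 66 such pairs of variant genes this occurred in 0. Most of those variant pairs stood far above 10 TPM, so the counts do not compare genes of like level. H2bc9 was chosen after its values were seen.

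Of 14 genes for histone mRNA transcription and 3′ processing, 0 passed by limma in the P1, P5 and spermatogonia knockouts, where 0, 1 and 1 had an unadjusted p under 0.05 and both fits on recovered reads called 0. Srrt, which links capping to RNA processing, fell in P10 GcKO non-growing oocytes (1.76 and 0.779 TPM, against 6.13 and 7.58 TPM in Gctrl; adjusted p = 0.0389, limma) and rose in GcKO growing oocytes (6.81 and 4.12 TPM, against 0.628 and 1.43 TPM; adjusted p = 0.0139). Lsm10, a U7 snRNP subunit needed for histone pre-mRNA cleavage, fell in GcKO growing oocytes, where it was at 494 and 367 TPM, against 888 and 847 TPM in Gctrl (adjusted p = 0.00341). Between growing and non-growing control oocytes 3 of the 14 rose and 3 fell, beside 24.3% of all genes called. Slbp, which binds the stem-loop, rose and was at 403 and 365 TPM in growing and 40.5 and 90.3 TPM in non-growing oocytes (adjusted p = 0.000105).

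Among 28 histone chaperone and exchange genes tested, Npm2, an oocyte nucleoplasmin, was lower in P1 DcKO at 1.73 and 6.70 TPM, against 41.9 and 39.1 TPM in P1 Dctrl (adjusted p = 0.0198, limma). Asf1a, a chaperone for H3 and H4, fell in P1 DcKO (73.6 and 72.8 TPM, against 160.1 and 158 TPM; adjusted p = 0.0297) and in P5 DcKO (135 and 81.1 TPM, against 253 and 264 TPM; adjusted p = 0.0180). Asf1b, its paralog, rose in P10 GcKO growing oocytes (421 and 298 TPM, against 165 and 122 TPM; adjusted p = 0.00139), and Rbbp7 fell there (1785 and 1741 TPM, against 3009 and 2356 TPM; adjusted p = 0.0429). In the P10 non-growing knockout 0 chaperone genes passed by limma, with 4 at an unadjusted p under 0.05 and 1 called by each fit on recovered reads. In the spermatogonia knockout 0 of 29 passed, with 4 lower at an unadjusted p under 0.05 and 0 called on recovered reads. Of 24 S-phase and mitosis genes, 0 passed by limma in any of the 5 knockout comparisons. Of all genes, 1.70% passed in P1, 1.36% in P5, 1.92% in P10 non-growing oocytes, 13.8% in P10 growing oocytes and 0.0% in spermatogonia. At an unadjusted p under 0.05 there were 3 of 24 in P1 (10.2% of all genes), 4 in P5 (11.8%), 8 in P10 non-growing oocytes (15.6%), 3 in P10 growing oocytes (25.5%) and 7 in spermatogonia (16.1%). By direction these were 1 higher and 2 lower in P1, 1 higher and 3 lower in P5, and 4 each way in P10 non-growing oocytes. In P10 growing oocytes all 3 were lower, and in spermatogonia all 7. On recovered reads limma-trend called 1 in P10 non-growing and voom 1 in P10 growing oocytes.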

How the data were processed

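RNA from oocytes and spermatogonia was extracted with RNeasy Plus Micro, made into libraries with the NEBNext Single Cell/Low Input kit and sequenced as paired 150-base reads on a HiSeq X, per the labels' protocols. Reads were processed with Trimmomatic 0.39, STAR 2.5.4b, SAMtools 1.9 and featureCounts 2.0.1 on GRCm38 (mm10), per the submitters' processing notes. The annotation and the strand setting of the counting are not given in the sources used here. The authors deposited TPM, in a table of oocytes and a table of spermatogonia. TPM corrects for length and depth and sums to a fixed total, so a gene can fall in TPM because others rise.

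Genes with at least 1 TPM in at least 2 libraries of a table were tested on log2(TPM + 1) with limma 3.58.1 in R 4.3.3 (group means, moderated test with an intensity trend, two-sided). P-values were adjusted by the Benjamini-Hochberg method across every gene tested in a fit, at a threshold of 0.05. Fold changes on this scale understate the change of low genes. The 16 oocyte libraries entered one fit of 20470 genes (8 residual degrees of freedom) and the 4 spermatogonia libraries another of 18671 genes (2 residual degrees of freedom). The fit was tested on simulated data. The filter left 26 members untested in oocytes and 46 in spermatogonia, and a member that passed it in 1 group had to be high there. Read numbers came from TPM and gene length (98.67 to 99.23% of low values within 0.05 of a whole read). They gave floors of 3 reads per library, covering counting error only, and 2 alternatives added after the data were seen, limma-trend and limma-voom on recovered reads.

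The members, lists and named genes were chosen with earlier results of these data known. Named were members past the test (up to 12 a comparison), the main variants, the 2 most abundant members of each replication class, and up to 3 genes of each related list. Gene coordinates and promoters are from GENCODE M21 and RefSeq on the same build. Python 3.11.15 was used for sums and figures.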

Additional observations from a re-analysis of the deposited data

Results flagged for a closer look

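The difference in knockout effect between stages passed the test for 6 members, of the 42 tested in each of 2 comparisons, and each is given as the log2 effect at the first stage minus that at the second (limma, adjusted over all genes). Between P5 and P1 non-growing oocytes it was 2.64 for H3c3, a gene at 0 in both P1 DcKO libraries. It did not pass under quantile normalization, the replicate block, a fit of the compared groups alone, or 5 of 8 omissions of 1 library.

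Between P10 growing and non-growing oocytes the difference was 5.56 for H4c8 (adjusted p = 0.00335), the value that passed under every alternative. It was 3.53 for H2bc14, 3.86 for H2ac11 and 1.04 for H2az1, a larger effect in growing oocytes in each case. It was -3.32 for H2bu2, whose GcKO libraries were above both controls at both stages. Each of these 4 missed the threshold in at least 5 of 8 omissions of 1 library.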

How the results depend on the processing

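No call of a histone member turned its direction: over 29 calls, all 371 values under alternatives kept the sign, 274 also passed the test and 97 did not, 64 of these among 140 omissions of 1 library. Of the 29 calls, 9 passed under every alternative run. Where 2 compared groups do not overlap, omitting 1 library cannot turn the sign, so the kept sign of those values was fixed in advance. Counts of called members moved by over 1.5 times as follows. The share of all genes called in each of these fits is not given here, so the counts have no background beside them. With only the groups compared, P1 gave 4, P10 NGO 0, P5 against P1 controls 10, the P5 minus P1 difference 0 and the GO minus NGO difference 2. Without a filter, P5 gave 3 and the GO minus NGO difference 2; with a filter at 5 TPM the P5 minus P1 difference gave 0. A pseudocount of 0.1 gave 5 in P10 NGO. Quantile normalization gave 5 in P10 NGO, 8 for the GO minus NGO difference and 0 for the P5 minus P1 difference. In the fits on recovered reads (chosen after seeing the data), limma-trend and voom each gave 2 for P5 against P1 controls. Voom also gave 2 in P1, but 0 of them were the members of the main test, and 5 in P10 GO. Its weights reached 5.5e+13 in the oocyte fit (median 0.643). It was run first and then joined by limma-trend because of those weights, after its calls had been seen. Omitting 1 library at a time gave 1 to 1 calls in P1, 0 to 2 in P5, 2 to 6 in P10 NGO, 3 to 7 in P10 GO, 0 to 0 in spermatogonia, 1 to 3 for P5 against P1 controls, 5 to 7 for GO against NGO controls, 0 to 1 for the P5 minus P1 and 1 to 8 for the GO minus NGO difference. The cause of these moves was not tested. The replicate block gave 2 calls in P1, 0 in P5, 2 in P10 NGO, 8 in P10 GO, 0 in spermatogonia, 5 for P5 against P1 controls, 7 for GO against NGO controls, 0 for the P5 minus P1 difference and 4 for the GO minus NGO difference. Replicate differences of a knockout and its control barely correlated over genes (r -0.049 to 0.021). With 1 such difference in each group, this cannot decide whether the numbers pair the libraries. In spermatogonia quantile normalization moved the median of all genes to -0.07 on the log2 scale, against 0.09, and in growing oocytes recovered reads moved it to 0.26, against 0.06. Depth limits the replication genes: H3c3 had 7 and 8 reads in P1 Dctrl and 1 and 6 in P5 Dctrl, and H2bu2 had 6 and 2 in P10 Gctrl NGO.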

Other observations

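Of 15 other histone genes outside the symbol rule, 6 were tested. In P10 growing oocytes 2 of the 6 rose in GcKO, beside 13.8% of all genes called, and between growing and non-growing control oocytes 1 rose and 2 fell, beside 24.3%. In the P1, P5, P10 non-growing and spermatogonia knockouts 0 passed by limma, with 1, 1, 1 and 3 at an unadjusted p under 0.05 and 0 called by either fit on recovered reads. H2aj, a replication-independent H2A gene, was at 109.6 and 101 TPM in P10 GcKO growing oocytes, against 19.9 and 27.7 TPM in Gctrl growing oocytes (log2 change 2.12, adjusted p = 0.000269, limma). Macroh2a1, which encodes a macroH2A variant, was at 51.3 and 37.8 TPM in GcKO, against 20.6 and 24.0 TPM in Gctrl growing oocytes (0.95, adjusted p = 0.0158). Both genes had fallen with growth in controls, Macroh2a1 to 20.6 and 24.0 TPM in growing oocytes, against 369.9 and 335 TPM in non-growing ones (-3.92, adjusted p = 7.05e-07). Cenpa, the centromeric H3 variant, rose to 62.0 and 47.9 TPM in growing control oocytes, against 8.25 and 16.7 TPM in non-growing ones (2.12, adjusted p = 0.00824).

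H2aw, chosen after its values were seen, was at 16.4 and 18.6 TPM in GcKO growing oocytes, against 1.29 and 3.18 TPM in Gctrl growing oocytes (2.58, adjusted p = 0.00417, limma). On chromosome 11, H2bu2 and H3f4 lie 12278 bases apart, and both were above both controls in GcKO growing oocytes.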
